A study of Rattus norvegicus with 8 samples.

Results

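The 6 arrays of N27 cells given a toxin were taken as one side and set against the 2 control arrays, to find the RNAs that moved the same way on every treated array. N27 is an immortalised line of rat mesencephalic cells that the labels describe as dopamine producing. The 8 single-colour arrays comprised 2 control arrays, 2 of cells given manganese (Mn, 150 µM for 48 h), 2 of cells given MPP+ (250 µM for 48 h) and 2 labelled 3-NPA, taken here to be 3-nitropropionic acid, for which the labels give no dose or time. The labels give no genetic change beyond the line itself and no vehicle for the controls, and they do not say whether the 2 arrays of a group came from separate cultures. The p-values therefore measure the spread between arrays, which may be technical. Membership was fixed by the labels, with 6 treated arrays of 8 in all.

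MPP+ inhibits complex I of the respiratory chain, 3-nitropropionic acid inhibits succinate dehydrogenase (complex II), and manganese in excess enters mitochondria and disturbs their oxidative metabolism. Cells with impaired mitochondria commonly switch on the integrated stress response, in which the transcription factor ATF4 raises genes for amino acid uptake and synthesis. Sterol synthesis is governed separately, by SREBP factors that are held in the endoplasmic reticulum by Insig proteins and raise the genes of the mevalonate pathway once released.

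Signals are given on the log2 scale relative to the 75th percentile of each array, so that 0 is the signal below which 75% of an array's probes lie. Of 58717 spots per array that were not controls, 32711 and 34060 were well above background on the control arrays and 37964 to 41354 on the treated arrays, and 0 were saturated. The background itself differed along the line of the comparison. The mean background-subtracted signal of the negative control spots was -10.53 and -9.13 intensity units on the control arrays and -4.22 to -3.29 on the treated arrays, and the lowest processed signal was 8.1 and 9.18 against 2.19 to 3.41. All 8 arrays lay on 1 slide, the 3-NPA arrays were extracted from the image in the later of 2 runs, and slide position cannot be told apart from the groups. Th, tyrosine hydroxylase, was at -1.84 and -1.93 on the control arrays, -1.87 and -2.02 with Mn, -1.93 and -2.02 with MPP+, and -1.77 and -1.78 with 3-NPA, and Slc6a3, the dopamine transporter, was not well above background on any array.

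A total of 16908 genes were tested, of which 11595 had a symbol. The treated mean differed from the control mean for 3676 genes (21.7% of those tested) by limma with an adjusted p below 0.05, 2202 higher (13%) and 1474 lower (8.72%). All 6 treated arrays lay on one side of both control arrays for 3683 genes (21.8%), 2105 above (12.4%) and 1578 below (9.33%). Both held for 2561 genes (15.1%), 1527 higher (9.03%) and 1034 lower (6.12%), and these are called changed in every treated array; "rose" and "fell" are used of them alone. Among them, 41 rose and 61 fell at least 2-fold with each toxin. The genes nearest the threshold were Rpain and Ccdc163 just inside, at adjusted p of 0.0497 and 0.0498, and Fam83h and Batf2 just outside, both at 0.05.

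The count rested on how the spread was measured. The fit takes the spread from the 2 arrays within each group. When the 6 treated arrays were instead one group, so that differences among the toxins entered the spread, limma called 100 genes, 49 higher and 51 lower, at the same adjusted p. The 3 comparisons with single toxins share the control arrays, and each called the gene in the same direction for 492 genes (2.91%), 309 higher and 183 lower. Taken singly, Mn called 1295 genes (7.66%), MPP+ 2357 (13.9%) and 3-NPA 6474 (38.3%). Without the 3-NPA arrays the count of genes changed in every treated array was 929.

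Dim genes carried much of the excess of rises. With the genes cut into 4 equal groups by signal, the dimmest had a median processed signal of 29, and in it 498 rose and 105 fell, whereas in the brightest group, with a median of 12888, 232 rose and 340 fell. With normexp background correction of the raw signals, the same groups gave 56 rises and 233 falls, and 286 rises and 373 falls. Over all genes the share of rises went from 59.6% to 44.1%. Both corrections named 1688 genes, 861 of which rose and 827 fell. Of the 1527 rises, 509 (33.3%) had neither control array well above background, so that their size was not measured. Folds given below as "at least" hold for the processed signal only, and with normexp they can be smaller. On all 8 arrays 973 of the rises and 977 of the falls were well above background. Among all genes tested, 1462 had neither control array but every treated array well above background. The reverse, both control arrays and no treated array well above background, held for 1 gene. The 1462 genes and the 509 rises entered the test only through treated groups. The part of the background difference in the calls of dim genes was not tested beyond these counts.

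**Figure D1:**
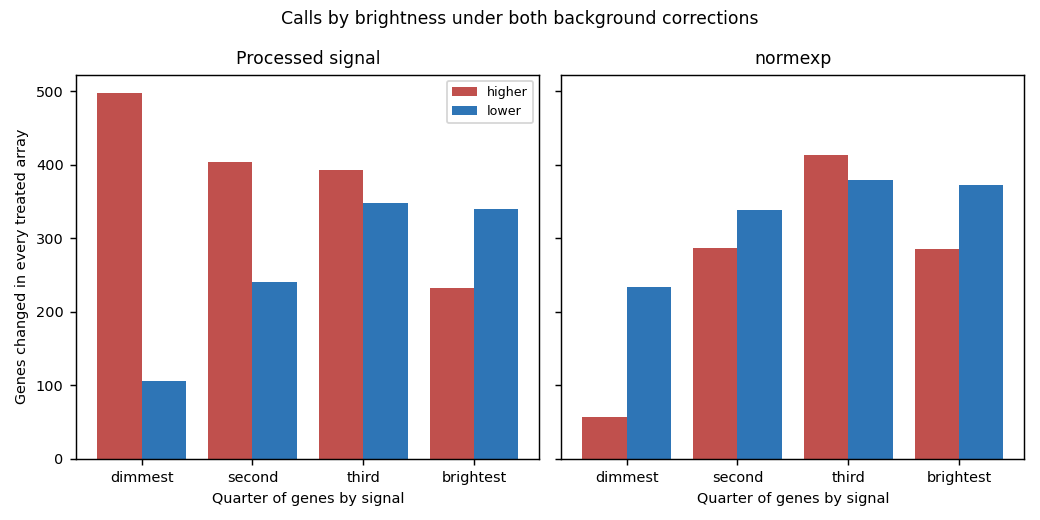
Number of genes changed in every treated array (y axis) in 4 equal groups of the tested genes by signal (x axis), higher in red and lower in blue, with the deposited processed signal on the left and normexp on the right. The dimmest group holds 498 rises with the processed signal and 56 with normexp, while the brightest holds 232 and 286.

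Slc7a11 led the rises by the smallest of its 3 toxin changes, and on the pooled difference only Cox6a2 was larger. It encodes the cystine and glutamate exchanger that supplies cystine for glutathione, and its probe lies at chr2:139241468-139241527 of the rat rn4 assembly, the build of all probe positions given here. Its log2 level was -2.78 and -2.97 on the control arrays, 0.61 and 0.49 with Mn, 1.18 and 1.16 with MPP+, and 0.94 and 1.05 with 3-NPA. Every treated array lay more than 3 log2 units above both control arrays. The pooled log2 difference was 3.78 ± 0.085 (SE), adjusted p = 0.00013, or 13.7-fold higher, and it was 3.43 with Mn, 4.04 with MPP+ and 3.87 with 3-NPA. In the fit with the treated arrays as one group the adjusted p was 0.00103, the smallest among genes with a symbol.

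Of 15 tested genes of ATF4 and its transcription factor and feedback targets, 12 rose (80%, against 9.03% of all genes) and 0 fell. The median log2 difference was 0.87, where the median of all genes was 0.01. At an unadjusted p below 0.05 by limma 13 were higher and 0 lower, against 21% and 16% of all genes. Trib3, a pseudokinase that restrains ATF4, was at -0.29 and -0.13 on the control arrays, 1.80 and 1.52 with Mn, 3.26 and 3.18 with MPP+, and 2.14 and 1.95 with 3-NPA (chr3:142664936-142664995). The MPP+ arrays were highest and no treated array reached the control range. The log2 difference was 2.52 ± 0.109 (SE), adjusted p = 0.000418. Ddit3, the factor known as CHOP, stood at 1.27 and 1.24 on the control arrays, 1.95 and 1.67 with Mn, 3.72 and 3.73 with MPP+, and 3.01 and 2.98 with 3-NPA. Mn moved it least, and the log2 difference was 1.59 ± 0.093 (SE), adjusted p = 0.000631.

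Sesn2, a leucine sensor that restrains mTORC1, was at -4.16 and -4.16 on the control arrays, -3.12 and -2.81 with Mn, -1.94 and -1.50 with MPP+, and -2.60 and -2.42 with 3-NPA, a log2 difference of 1.76 ± 0.149 (SE), adjusted p = 0.00161. Nupr1, a small stress-induced nuclear protein, was at -2.14 and -2.36 on the control arrays, -1.46 and -1.47 with Mn, -0.82 and -0.76 with MPP+, and -0.96 and -0.95 with 3-NPA, a log2 difference of 1.18 ± 0.083 (SE), adjusted p = 0.000966. Atf4 itself was 1.56-fold higher, at 0.64 ± 0.079 (SE), adjusted p = 0.00481. Both Sesn2 and Nupr1 lay clear of the controls on all treated arrays, and with normexp the log2 difference of Sesn2 was 1.04. The genes Cebpb, Ppp1r15a and Ndrg1, named after their values were seen, did not pass. In the limma fit with the treated arrays as one group 0 of the 15 passed and 11 had an unadjusted p below 0.05, as had 15.4% of all genes (0.591% passed), with adjusted p of 0.0686 for Trib3, 0.247 for Ddit3, 0.106 for Sesn2 and 0.0724 for Nupr1.

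Among 11 amino acid transporters under ATF4, 5 rose (45.5%, against 9.03% of all genes) and 0 fell, with a median log2 difference of 0.81. At an unadjusted p below 0.05 by limma 7 were higher and 2 lower, against 21% and 16% of all genes. Slc7a3, a carrier of cationic amino acids, was at -0.81 and -0.81 on the control arrays, 1.40 and 1.03 with Mn, 2.65 and 2.52 with MPP+, and 1.66 and 1.72 with 3-NPA (chrX:89159642-89159701). MPP+ gave the highest values, and the log2 difference was 2.64 ± 0.111 (SE), adjusted p = 0.000371. Slc7a1, a relative with the same substrates, had a log2 difference of 1.16 ± 0.075 (SE), adjusted p = 0.000783, and Slc6a9, a glycine carrier, one of 0.81 ± 0.095 (SE), adjusted p = 0.00408. Slc38a4, an amino acid carrier outside that list, fell by 1.74 on the log2 scale from -2.93 and -2.54 on the control arrays, -4.42 and -4.31 with Mn, -4.45 and -4.68 with MPP+, and -4.31 and -4.68 with 3-NPA. The pooled estimate for Slc38a4 was -1.74 ± 0.153 (SE), adjusted p = 0.0018, and with normexp it was -1.10.

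Of 13 enzymes of amino acid and one-carbon metabolism, 10 rose (76.9%) and 1 fell (7.69%), against 9.03% and 6.12% of all genes. The median was 0.74, or 0.64 with genes dim in a group at their bound. Asns, which makes asparagine, was at 0.88 and 0.98 on the control arrays, 2.00 and 2.05 with Mn, 2.88 and 2.90 with MPP+, and 2.09 and 2.22 with 3-NPA (chr4:32759136-32759195), a log2 difference of 1.43 ± 0.075 (SE), adjusted p = 0.000578. Mthfd2, of the mitochondrial folate pathway, was at 2.75 and 2.85 on the control arrays, 3.87 and 3.68 with Mn, 4.38 and 4.37 with MPP+, and 3.94 and 3.95 with 3-NPA, a log2 difference of 1.23 ± 0.081 (SE), adjusted p = 0.000805. Asns and Mthfd2 were highest with MPP+ and above both controls on every treated array.

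Pck2, mitochondrial phosphoenolpyruvate carboxykinase, differed by 0.73 ± 0.068 (SE), adjusted p = 0.00201, with 0.50 with Mn, 1.58 with MPP+ and 0.12 with 3-NPA. The one fall was Cbs, cystathionine beta-synthase, the entry to transsulfuration, at -3.33 and -3.60 on the control arrays, -5.50 and -5.25 with Mn, -5.81 and -5.96 with MPP+, and -6.14 and -6.01 with 3-NPA (chr20:10047648-10047707). All treated arrays lay below both control arrays and the 3-NPA and MPP+ arrays below those with Mn. The log2 difference was -2.31 ± 0.117 (SE), adjusted p = 0.000578, and it was -0.98 with normexp. The fit with the treated arrays as one group kept 2 of the 13, Cbs (0.0101) and Mthfd2 (0.0491), whereas Asns (0.0784) and Pck2 (0.451) did not.

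Of 20 cytosolic aminoacyl tRNA synthetases, which load amino acids onto tRNA, 9 rose (45%) and 2 fell (10%), against 9.03% and 6.12% of all genes. The median was 0.29. The smallest p was that of Iars, for isoleucine, at 2.72 and 2.70 on the control arrays, 3.38 and 3.17 with Mn, 3.58 and 3.54 with MPP+, and 3.39 and 3.39 with 3-NPA, a log2 difference of 0.70 ± 0.081 (SE), adjusted p = 0.00402. Eprs differed by 0.65 ± 0.078 (SE), adjusted p = 0.0043, Sars by 0.78 ± 0.112 (SE), adjusted p = 0.00747 and Cars by 0.51 ± 0.078 (SE), adjusted p = 0.009. The differences of this list were small, at most 1.72-fold. All 9 rises and neither of the falls were called with both background corrections. With the treated arrays as one group 0 of the 20 passed in limma, and 8 had an unadjusted p below 0.05 (15.4% of all genes).

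The promoters of these genes were searched because a composite C/EBP and ATF element, TGATGCAA, is a textbook binding sequence of ATF4 with C/EBP partners. The window ran from 250 bases before to 50 after the start site in RefSeq on GRCr8, and both strands were read. Of 27457 promoters 204 (0.743%) held the letters, as did 53 of 8743 promoters (0.606%) matched to tested genes. The share was 1.65% (14 of 847) for genes that rose and 0.675% (4 of 593) for genes that fell. Of 17 synthetase promoters 7 held it, of 12 for transcription factors and feedback 3, of 8 for transporters 2, of 10 for enzymes 0 and of 8 for secreted factors 1. Of the 13 list genes with the element 8 rose (61.5%), and of the 42 without it 26 (61.9%), against 9.03% of all genes, so genes with and without the letters rose in nearly the same share. The sites of 6 genes that rose and of Slc38a1 and Tars, which did not pass, are shown with the element in capitals (TTGCATCA where it lies on the other strand), 5′ to 3′ along the gene:
Chac1, chr3:126795944-126795991, plus strand, 167 bases upstream: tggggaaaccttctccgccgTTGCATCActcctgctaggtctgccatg
Fgf21, chr1:105221492-105221539, minus strand, 143 bases upstream: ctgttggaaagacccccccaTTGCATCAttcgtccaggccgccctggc
Nupr1, chr1:190645929-190645976, minus strand, 55 bases upstream: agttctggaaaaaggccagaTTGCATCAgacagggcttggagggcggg
Jdp2, chr6:110993555-110993590, plus strand, 16 bases upstream: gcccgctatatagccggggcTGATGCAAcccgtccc
Iars, chr17:15193653-15193696, minus strand, 24 bases upstream: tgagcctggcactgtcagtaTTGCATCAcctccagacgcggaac
Mars, chr7:65023754-65023790, minus strand, 17 bases upstream: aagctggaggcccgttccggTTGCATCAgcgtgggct
Tars, chr2:62114803-62114849, minus strand, 27 bases upstream: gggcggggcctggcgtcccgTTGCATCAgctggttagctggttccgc
Slc38a1, chr7:129681516-129681563, minus strand, 142 bases upstream: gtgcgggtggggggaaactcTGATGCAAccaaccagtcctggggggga
These genes were chosen for the element after their values were seen. The log2 difference was 1.00 ± 0.148 (SE), adjusted p = 0.00826 for Chac1, which breaks down glutathione, and 0.42 ± 0.076 (SE), adjusted p = 0.0149 for Mars. Jdp2, an AP-1 repressor, was dim on both control arrays and at least 1.83-fold higher (limma adjusted p = 0.0175), and its call was lost with normexp (adjusted p = 0.065). For Tars it was -0.08 ± 0.065 (SE), adjusted p = 0.404 and for Slc38a1 -0.01 ± 0.129 (SE), adjusted p = 0.965. A match of letters is a description of the window and shows no binding.

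**Figure D2:**
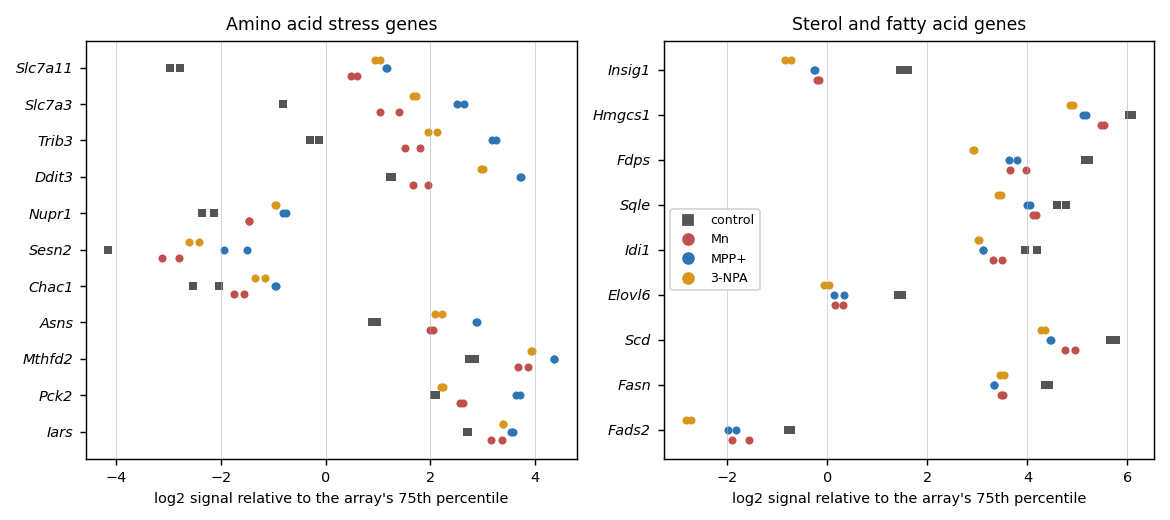
Log2 signal relative to the 75th percentile of each array (x axis) for genes of amino acid stress, left, and of sterol and fatty acid synthesis, right (y axis); each point is 1 array, squares control and circles toxins by colour. The genes shown were picked by name from their lists. For those picked, the treated arrays lie to the right of both controls on the left and to the left of both controls on the right. Members not changed in every treated array, such as Cebpb, Ppp1r15a, Ndrg1 and Srebf2, and Cbs, which fell, are left out. The separation therefore describes the genes shown and not the whole lists.

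Of 8 stress-induced secreted factors tested, 6 rose (75%, against 9.03% of all genes) and 0 fell, with a median of 0.92. At an unadjusted p below 0.05 by limma 6 were higher and 1 lower, against 21% and 16% of all genes. Vegfa, the vascular growth factor, was at 1.45 and 1.57 on the control arrays, 2.64 and 2.39 with Mn, 2.65 and 2.60 with MPP+, and 2.92 and 2.96 with 3-NPA (chr9:10535933-10535992), a log2 difference of 1.18 ± 0.091 (SE), adjusted p = 0.00122. Areg, an EGF receptor ligand, was at -2.03 and -1.85 on the control arrays, -0.67 and -1.08 with Mn, -0.95 and -0.90 with MPP+, and 0.63 and 0.64 with 3-NPA, a log2 difference of 1.55 ± 0.123 (SE), adjusted p = 0.00131. The treated arrays of Vegfa lay between 2.39 and 2.96, whereas Areg was highest with 3-NPA. Fgf21, a hormone of metabolic stress, differed by 1.27 ± 0.109 (SE), adjusted p = 0.00162, and by 0.69 with normexp. Stc2, stanniocalcin, was dim on both control arrays and at least 3.16-fold higher (limma adjusted p = 0.00157; log2 difference with normexp 1.08). Only 1 of the 8 passed with the treated arrays as one group, Vegfa (0.0285), whereas Areg (0.229), Stc2 (0.209) and Fgf21 (0.0615) did not.

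Of 19 p53 targets, 9 rose and 0 fell (limma, unadjusted p below 0.05: 11 higher and 1 lower), with a median of 0.57, or 0.48 with dim genes at their bound, against 9.03% of all genes rising. Cdkn1a, the cyclin-dependent kinase inhibitor p21, was at 0.49 and 0.29 on the control arrays, 2.52 and 2.27 with Mn, 1.73 and 1.84 with MPP+, and 3.21 and 3.35 with 3-NPA (chr20:7386596-7386655), a log2 difference of 2.10 ± 0.106 (SE), adjusted p = 0.000578. Aen, a p53-induced nuclease, was at 0.92 and 0.56 on the control arrays, 2.45 and 2.22 with Mn, 2.47 and 2.49 with MPP+, and 2.42 and 2.41 with 3-NPA (chr1:134625307-134625366), a log2 difference of 1.67 ± 0.119 (SE), adjusted p = 0.00103. Aen was nearly equal on the 6 treated arrays, and Cdkn1a was highest with 3-NPA and lowest with MPP+. Mdm2, which degrades p53, differed by 1.14 ± 0.133 (SE), adjusted p = 0.00402, and Phlda3, an inhibitor of AKT, by 1.10 ± 0.103 (SE), adjusted p = 0.00213. With the treated arrays as one group Aen and Phlda3 passed (adjusted p 0.00506 and 0.0123), and Cdkn1a and Mdm2 did not (0.0953 and 0.141).

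Of 23 NRF2 targets, 6 rose (26.1%) and 1 fell (4.35%), against 9.03% and 6.12% of all genes, with a median of 0.10. Slc7a11 is also on this list. Nqo1, a quinone reductase, was at -3.99 and -4.19 on the control arrays, -2.77 and -3.07 with Mn, -2.65 and -2.54 with MPP+, and -1.36 and -1.55 with 3-NPA (chr19:37251727-37251786), a log2 difference of 1.76 ± 0.116 (SE), adjusted p = 0.000807, or 1.11 with normexp. Gsr, glutathione reductase, differed by 1.00 ± 0.095 (SE), adjusted p = 0.00216, or 0.43 with normexp, and Srxn1, sulfiredoxin, by 0.85 ± 0.087 (SE), adjusted p = 0.00286. Nqo1 and Srxn1 were highest with 3-NPA. Of the 23, 1 passed with the treated arrays as one group, Slc7a11, whereas Nqo1 (0.146), Gsr (0.0993) and Srxn1 (0.369) did not. Hmox1, heme oxygenase, did not pass, at 0.43 and -0.14 on the control arrays, 0.04 and 0.37 with Mn, -0.35 and -0.14 with MPP+, and 0.88 and 0.71 with 3-NPA, where the control arrays alone spanned more than the mean difference.

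Other rises among the 15 largest lay outside these lists. Cox6a2, the form of a cytochrome c oxidase subunit known from heart and muscle, was at -3.19 and -3.34 on the control arrays, -0.73 and -1.18 with Mn, 2.99 and 3.02 with MPP+, and 0.18 and 0.23 with 3-NPA (chr1:187464580-187464639). It rose 16.2-fold on pooling, but its change was 2.31 with Mn, 6.27 with MPP+ and 3.47 with 3-NPA. The pooled estimate was 4.02 ± 0.13 (SE), adjusted p = 0.000278, and the adjusted p was 0.179 with the treated arrays as one group. Mgmt, which repairs alkylated guanine, was at -4.76 and -4.24 on the control arrays, -1.82 and -2.60 with Mn, -1.20 and -1.39 with MPP+, and -0.68 and -0.86 with 3-NPA (chr1:196866830-196866889), a log2 difference of 3.08 ± 0.235 (SE), adjusted p = 0.00119, or 1.94 with normexp. Of its 8 arrays only 1, a control array, was not well above background.

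Gpnmb, a glycoprotein of lysosomes and melanosomes, was at -1.15 and -1.16 on the control arrays, 1.04 and 0.86 with Mn, 0.99 and 0.90 with MPP+, and 2.69 and 2.61 with 3-NPA (chr4:77182198-77182257), a log2 difference of 2.67 ± 0.081 (SE), adjusted p = 0.000262. Mn and MPP+ gave about the same value and 3-NPA a higher one. Of 29 genes of lysosome and autophagy, 4 rose (13.8%) and 1 fell (3.45%), against 9.03% and 6.12% of all genes, with a median of 0.10. Fut1, a fucosyltransferase, was dim on both control arrays and at least 5.61-fold higher (limma adjusted p = 0.000365), and its normexp log2 difference was 1.77. Slc16a6, of the monocarboxylate transporter family, differed by 1.79 ± 0.126 (SE), adjusted p = 0.000979. Bpifb6, of the family of bactericidal permeability-increasing proteins, had 1.54 with Mn, 1.72 with MPP+ and 4.43 with 3-NPA, and a pooled difference of 2.56 ± 0.097 (SE), adjusted p = 0.000331.

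Of 27 interferon-responsive genes, 7 rose (25.9%) and 1 fell (3.7%), against 9.03% and 6.12% of all genes. The median was 0.23, and 3 of the rises held with both background corrections. Rsad2, the antiviral protein viperin, was at -0.74 and -0.40 on the control arrays, 1.90 and 1.48 with Mn, 1.36 and 1.30 with MPP+, and 3.25 and 3.37 with 3-NPA (chr6:44100787-44100846), a log2 difference of 2.68 ± 0.146 (SE), adjusted p = 0.000578. Usp18, which removes ISG15, was at -3.40 and -3.63 on the control arrays, -2.38 and -2.12 with Mn, -2.25 and -2.10 with MPP+, and -1.08 and -0.91 with 3-NPA, a log2 difference of 1.71 ± 0.116 (SE), adjusted p = 0.000874. Both were highest with 3-NPA. Cmpk2, a mitochondrial nucleotide kinase whose probe lies 38.4 kb from that of Rsad2 on chromosome 6, was also among the 15 largest rises and differed by 1.90 ± 0.094 (SE), adjusted p = 0.000578. Gbp5, an interferon-inducible GTPase, was at -2.10 and -1.74 on the control arrays, -0.46 and -0.58 with Mn, -0.57 and -0.42 with MPP+, and -0.49 and -0.37 with 3-NPA, a log2 difference of 1.44 ± 0.118 (SE), adjusted p = 0.00146. Cmpk2 and Gbp5 are outside the list of 27 and were named as being among the 15 largest rises. With the treated arrays as one group 0 of the 27 passed in limma (0.591% of all genes), with adjusted p of 0.115 for Rsad2 and 0.132 for Usp18. Outside the list Gbp5 passed (adjusted p = 0.00756) and Cmpk2 did not (0.0564).

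Of 14 genes of ERK feedback and its ETS factors, 6 rose (42.9%) and 1 fell (7.14%), against 9.03% and 6.12% of all genes. The median was 0.60, or 0.36 with dim genes at their bound. Etv5 was at 1.74 and 1.59 on the control arrays, 3.56 and 3.49 with Mn, 2.55 and 2.70 with MPP+, and 3.73 and 3.81 with 3-NPA, a log2 difference of 1.64 ± 0.085 (SE), adjusted p = 0.000578. Etv4, a related factor, was dim on both control arrays and at least 2.53-fold higher (limma adjusted p = 0.000714; log2 difference with normexp 0.79). The fall was Dusp1, a phosphatase of MAP kinases, at -1.30 ± 0.096 (SE), adjusted p = 0.00109, with -0.49 with Mn, -2.23 with MPP+ and -1.18 with 3-NPA. Dusp2, of the same family, was dim on both control arrays and at least 1.34-fold higher (limma adjusted p = 0.00146; log2 difference with normexp 0.40), and was not called in every treated array with normexp.

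Of 22 immediate early genes, 5 rose (22.7%) and 1 fell (4.55%), against 9.03% and 6.12% of all genes. Only 2 of the rises and 0 of the falls held with both corrections. Fosl1, the AP-1 factor FRA-1, was at -2.25 and -1.86 on the control arrays, 0.10 and -0.28 with Mn, -0.48 and -0.35 with MPP+, and 0.67 and 0.72 with 3-NPA (chr1:208099035-208099094), a log2 difference of 2.12 ± 0.145 (SE), adjusted p = 0.000891. Fos was at 0.71 and 0.65 on the control arrays, 0.66 and 0.16 with Mn, -3.67 and -3.95 with MPP+, and -0.55 and -0.41 with 3-NPA. The MPP+ arrays of Fos lay far below all others and 1 Mn array lay within the control range, so it was not changed in every treated array although the pooled difference passed (-1.98 ± 0.152 (SE), adjusted p = 0.00122). Junb likewise passed on pooling (-0.90 ± 0.109 (SE), adjusted p = 0.00447) with 0.23 with Mn, -1.50 with MPP+ and -1.43 with 3-NPA.

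**Figure D3:**
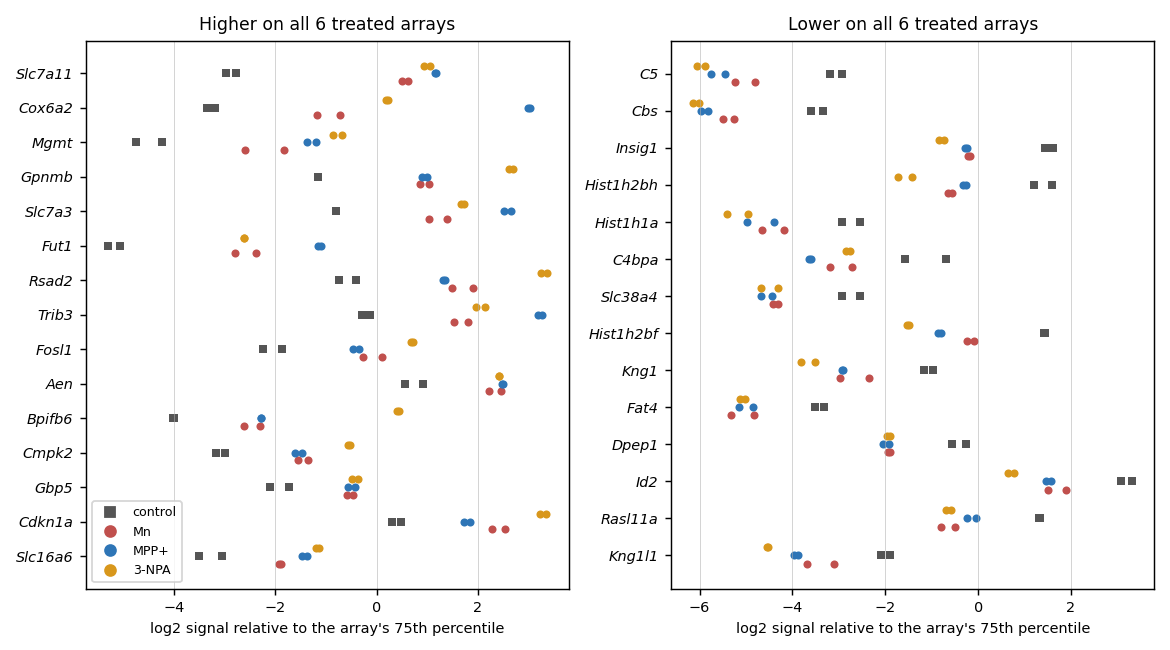
Log2 signal relative to the 75th percentile of each array (x axis) for the 15 genes that rose most and 14 of the 15 that fell most, ranked by the smallest of the 3 toxin changes (y axis); squares are control arrays and circles treated arrays. No treated array overlaps a control array, as the choice of genes requires, and the distance among toxins differs by gene.

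The falls were led by sterol genes. Of 25 genes of cholesterol synthesis and uptake, 0 rose and 18 fell, all 18 with both background corrections (0 higher and 22 lower at an unadjusted p below 0.05 by limma), with a median log2 difference of -0.77 against 6.12% of all genes falling. Insig1, which retains SREBP in the endoplasmic reticulum and is itself an SREBP target, was at 1.61 and 1.45 on the control arrays, -0.17 and -0.21 with Mn, -0.24 and -0.27 with MPP+, and -0.85 and -0.73 with 3-NPA (chr4:2578292-2578348), a log2 difference of -1.94 ± 0.08 (SE), adjusted p = 0.000365, or 3.83-fold lower. Fdps, farnesyl diphosphate synthase, was at 5.15 and 5.24 on the control arrays, 3.66 and 3.98 with Mn, 3.79 and 3.64 with MPP+, and 2.91 and 2.94 with 3-NPA (chr2:181170192-181170336), a log2 difference of -1.71 ± 0.107 (SE), adjusted p = 0.00073. Hmgcs1, which starts the mevalonate pathway, was at 6.03 and 6.09 on the control arrays, 5.54 and 5.47 with Mn, 5.16 and 5.10 with MPP+, and 4.91 and 4.85 with 3-NPA (chr2:51754514-51754573), a log2 difference of -0.89 ± 0.07 (SE), adjusted p = 0.00128. In each of these 3 genes the 3-NPA arrays were lowest and no treated array reached the controls. Srebf2, the sterol-sensing factor SREBP2 and named after its values were seen, was not changed in every treated array, at -0.54 ± 0.082 (SE), adjusted p = 0.00867. With the treated arrays as one group 5 of the 25 passed, among them Insig1 (adjusted p = 0.0115), while Fdps (0.0588) and Hmgcs1 (0.117) did not.

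Of 14 genes of fatty acid synthesis and desaturation, 0 rose and 10 fell (71.4%, against 6.12% of all genes), 8 of them with both corrections. The median was -0.74. At an unadjusted p below 0.05 by limma 0 were higher and 12 lower, against 21% and 16% of all genes. Elovl6, an elongase, was at 1.48 and 1.42 on the control arrays, 0.30 and 0.16 with Mn, 0.34 and 0.14 with MPP+, and 0.04 and -0.06 with 3-NPA (chr2:227054046-227054105), a log2 difference of -1.30 ± 0.09 (SE), adjusted p = 0.00094. Scd, the desaturase of stearate, was at 5.64 and 5.77 on the control arrays, 4.75 and 4.94 with Mn, 4.45 and 4.46 with MPP+, and 4.27 and 4.34 with 3-NPA, a log2 difference of -1.17 ± 0.085 (SE), adjusted p = 0.00103. Scd has near-identical paralogs in the rat, which a single probe may not separate.

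Fasn, fatty acid synthase, was at 4.35 and 4.42 on the control arrays, 3.51 and 3.48 with Mn, 3.33 and 3.33 with MPP+, and 3.45 and 3.54 with 3-NPA, a log2 difference of -0.95 ± 0.069 (SE), adjusted p = 0.00103, nearly equal with the 3 toxins. Fads2, a desaturase of polyunsaturated fatty acids, differed by -1.38 ± 0.11 (SE), adjusted p = 0.00135. With the treated arrays as one group Elovl6, Scd and Fasn passed (adjusted p 0.0113, 0.0472 and 0.0162) and Fads2 did not (0.134).

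Sterol gene promoters are known to pair SREBP sites with the CCAAT box, bound by NF-Y, so the letters CCAAT were counted on both strands of the same windows. They stood in 37.7% of all promoters, in 38.2% of those of tested genes, in 46.4% of those of genes that fell and in 32.9% of those of genes that rose. Of 17 matched promoters of the cholesterol list 14 (82.4%) held them, and of 10 of the fatty acid list 7. Ebp, Sc5dl, Srebf2 and Tm7sf2 of the first list and Elovl5 and Mlxipl of the second held the letters and did not fall. The share that fell was not compared between genes with and without the letters. Windows of 4 genes that fell are shown with the box in capitals (ATTGG on the other strand):
Insig1, chr4:8057933-8057987, minus strand, 193 bases upstream: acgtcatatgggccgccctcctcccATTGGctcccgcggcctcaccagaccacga
Fdps, chr2:176804872-176804926, minus strand, 85 bases upstream: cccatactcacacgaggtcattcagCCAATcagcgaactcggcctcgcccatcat
Hmgcs1, chr2:53382146-53382200, plus strand, 133 bases upstream: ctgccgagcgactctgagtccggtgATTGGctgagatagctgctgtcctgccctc
Scd, chr1:253118298-253118352, plus strand, 54 bases upstream: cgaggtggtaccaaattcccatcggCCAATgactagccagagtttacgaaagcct
A motif of 5 letters is frequent, as the shares over all promoters show, and a match shows no binding.

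The remaining falls among the 15 largest included secreted proteins of plasma. C5, complement component 5, was at -3.20 and -2.93 on the control arrays, -5.24 and -4.80 with Mn, -5.46 and -5.75 with MPP+, and -5.88 and -6.05 with 3-NPA (chr3:14011166-14011225), a log2 difference of -2.47 ± 0.159 (SE), adjusted p = 0.00077, or -1.23 with normexp. C4bpa, a binding protein of complement C4, was at -1.56 and -0.69 on the control arrays, -3.19 and -2.72 with Mn, -3.59 and -3.63 with MPP+, and -2.75 and -2.84 with 3-NPA (chr13:43553086-43553145), a log2 difference of -1.99 ± 0.242 (SE), adjusted p = 0.00447, with the control arrays further apart than any other pair. Kng1 and Kng1l1, kininogens of closely similar sequence whose probes may share signal, differed by -2.01 ± 0.18 (SE), adjusted p = 0.00187 and -1.96 ± 0.158 (SE), adjusted p = 0.00139.

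Dpep1, a membrane dipeptidase, was at -0.56 and -0.25 on the control arrays, -1.93 and -1.90 with Mn, -1.92 and -2.06 with MPP+, and -1.97 and -1.90 with 3-NPA (chr19:53518380-53518439), a log2 difference of -1.54 ± 0.104 (SE), adjusted p = 0.000872. Fat4, a large protocadherin, was at -3.33 and -3.52 on the control arrays, -5.32 and -4.83 with Mn, -5.14 and -4.85 with MPP+, and -5.02 and -5.12 with 3-NPA, a log2 difference of -1.62 ± 0.156 (SE), adjusted p = 0.00231, or -0.93 with normexp. Both were about equally low on all treated arrays. Rasl11a, a small GTPase of the RAS family, was at 1.33 and 1.31 on the control arrays, -0.79 and -0.51 with Mn, -0.04 and -0.23 with MPP+, and -0.59 and -0.69 with 3-NPA, a log2 difference of -1.79 ± 0.105 (SE), adjusted p = 0.000631.

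Of 13 Id, Hes and SMAD feedback genes, 2 rose (15.4%) and 4 fell (30.8%), against 9.03% and 6.12% of all genes. With both corrections 3 of the falls held. Id2, an inhibitor of helix-loop-helix factors, was at 3.07 and 3.32 on the control arrays, 1.50 and 1.90 with Mn, 1.56 and 1.47 with MPP+, and 0.77 and 0.63 with 3-NPA (chr6:42782548-42782897), a log2 difference of -1.89 ± 0.134 (SE), adjusted p = 0.001. Id1, of the same family, was at 4.64 and 4.81 on the control arrays, 4.42 and 4.39 with Mn, 3.59 and 3.53 with MPP+, and 2.87 and 2.81 with 3-NPA, a log2 difference of -1.13 ± 0.077 (SE), adjusted p = 0.000907. The order of the toxins was alike in both, with 3-NPA lowest and Mn nearest to control. Neither passed with the treated arrays as one group (adjusted p 0.0565 for Id2 and 0.296 for Id1).

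Of 17 histone genes, 0 rose and 6 fell (35.3%, against 6.12% of all genes), with a median of -0.50, or -0.35 with dim genes at their bound. At an unadjusted p below 0.05 by limma 0 were higher and 10 lower, against 21% and 16% of all genes. Hist1h2bh was at 1.20 and 1.60 on the control arrays, -0.57 and -0.66 with Mn, -0.26 and -0.32 with MPP+, and -1.72 and -1.43 with 3-NPA (chr17:48459105-48459164), a log2 difference of -2.23 ± 0.134 (SE), adjusted p = 0.00066. Hist3h2ba, also of the list, differed by -1.17 ± 0.128 (SE), adjusted p = 0.00348. The histone genes Hist1h2bf and Hist1h1a are outside the list and were named as being among the largest falls. Hist1h2bf differed by -2.26 ± 0.076 (SE), adjusted p = 0.000278, and Hist1h1a by -2.02 ± 0.23 (SE), adjusted p = 0.00388. Histone genes are near-identical copies, so which copy a probe read is uncertain.

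Of 32 mitosis genes, 2 rose (6.25%) and 8 fell (25%), against 9.03% and 6.12% of all genes, with a median of -0.18. Aurka, a spindle kinase, was at 3.27 and 3.29 on the control arrays, 2.79 and 2.66 with Mn, 2.78 and 2.71 with MPP+, and 2.70 and 2.71 with 3-NPA, a log2 difference of -0.55 ± 0.072 (SE), adjusted p = 0.00551. Ccnb1, mitotic cyclin B1, differed by -0.63 ± 0.085 (SE), adjusted p = 0.00628, Plk1 by -0.49 ± 0.074 (SE), adjusted p = 0.00851 and Cdc20 by -0.74 ± 0.113 (SE), adjusted p = 0.00893. Of 35 genes of DNA replication, 1 rose and 1 fell, each 2.86% of the list and below the shares of all genes. The fall was Rrm2 of ribonucleotide reductase, at -0.45 ± 0.105 (SE), adjusted p = 0.0307. Of 17 G1 cyclins, inhibitors and Myc, 1 rose (Cdkn1a, 5.88% of the list) and 3 fell (17.6%). Among the falls were Cdkn2c, a CDK4 and CDK6 inhibitor, at -1.10 ± 0.087 (SE), adjusted p = 0.00131 and Cdkn1c, the inhibitor p57, at -0.98 ± 0.114 (SE), adjusted p = 0.00398. With the treated arrays as one group 0 of the 32 mitosis and 0 of the 35 replication genes passed in limma, and 8 and 2 had an unadjusted p below 0.05 (15.4% of all genes).

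Of 31 proteasome subunits, 0 rose and 8 fell (limma, unadjusted p below 0.05: 0 higher and 19 lower), with a median of -0.24; of all genes 6.12% fell and 16% were lower at an unadjusted p below 0.05. Psmd14, the deubiquitinase of the lid, differed by -0.62 ± 0.076 (SE), adjusted p = 0.00466, with -0.35 with Mn, -0.19 with MPP+ and -1.32 with 3-NPA, and Psmd13 by -0.51 ± 0.075 (SE), adjusted p = 0.00795. Of 20 chaperones of the endoplasmic reticulum, 2 rose and 2 fell, each 10% of the list and near the 9.03% and 6.12% of all genes. Herpud1, of the degradation pathway of that compartment, differed by 0.95 ± 0.099 (SE), adjusted p = 0.00303, and Calr, the chaperone calreticulin, by -0.67 ± 0.093 (SE), adjusted p = 0.0069. Of 16 cytosolic heat shock proteins, 0 rose and 1 fell (limma, unadjusted p below 0.05: 0 higher and 4 lower), which was Dnaja1 at -0.42 ± 0.068 (SE), adjusted p = 0.0103. That is 6.25% of the list, the background share of falls being 6.12%.

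Of 36 complex I subunits, 0 rose and 2 fell (0 higher and 10 lower at an unadjusted p below 0.05 by limma), with a median of -0.12. The falls are 5.56% of the list, no more than the 6.12% of all genes, of which 16% were lower at the unadjusted threshold. Of the falls Ndufb7 (-0.43 ± 0.104 (SE), adjusted p = 0.033) was lost with normexp (adjusted p = 0.127). Ndufs1, the largest complex I subunit, was at 1.92 and 2.09 on the control arrays, 2.08 and 1.95 with Mn, 2.26 and 2.18 with MPP+, and 1.80 and 1.92 with 3-NPA, and Sdha, the flavoprotein of succinate dehydrogenase, at 2.99 and 2.85 on the control arrays, 2.77 and 2.82 with Mn, 3.01 and 3.13 with MPP+, and 3.04 and 3.07 with 3-NPA. Neither passed, at 0.03 ± 0.086 (SE), adjusted p = 0.84 and 0.05 ± 0.078 (SE), adjusted p = 0.65. Of 25 genes of the tricarboxylic acid cycle, 0 rose and 3 fell (limma, unadjusted p below 0.05: 0 higher and 6 lower), among them Sucla2 (-0.57 ± 0.073 (SE), adjusted p = 0.00521) and Pdhb (-0.63 ± 0.089 (SE), adjusted p = 0.00691). The 3 falls are 12% of the list against 6.12% of all genes.

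Of 30 genes of glycolysis and the response to hypoxia, 1 rose (Vegfa, 3.33% of the list) and 4 fell (13.3%). Of all genes 9.03% rose and 6.12% fell. The median of the list was -0.21. Adm, the vasodilator peptide adrenomedullin, was at 5.57 and 5.57 on the control arrays, 4.71 and 4.70 with Mn, 4.25 and 4.28 with MPP+, and 4.70 and 4.71 with 3-NPA (chr1:168382310-168382369), a log2 difference of -1.01 ± 0.064 (SE), adjusted p = 0.000741. Aldoc, a glycolytic aldolase, differed by -1.21 ± 0.104 (SE), adjusted p = 0.00162, and Slc16a3, the lactate exporter, by -0.81 ± 0.072 (SE), adjusted p = 0.00186. Ldha, lactate dehydrogenase A, did not pass, at -0.49 ± 0.137 (SE), adjusted p = 0.0512, and its control arrays at 6.69 and 7.16 overlapped the Mn arrays.

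Of 14 genes of metallothioneins and metal handling, 3 rose (21.4%) and 2 fell (14.3%), against 9.03% and 6.12% of all genes, with a median of 0.04. Mt1a was at 4.51 and 4.55 on the control arrays, 5.05 and 4.98 with Mn, 5.33 and 5.37 with MPP+, and 6.53 and 6.46 with 3-NPA, a log2 difference of 1.09 ± 0.069 (SE), adjusted p = 0.000741, and Mt2A differed by 0.40 ± 0.084 (SE), adjusted p = 0.0235. Mt3 was dim on both control arrays and at least 4.9-fold higher (limma adjusted p = 0.000331; log2 difference with normexp 1.45), with an adjusted p of 0.177 with the treated arrays as one group. Slc11a2, the carrier DMT1 of iron and other divalent metals, fell, at -0.52 ± 0.066 (SE), adjusted p = 0.00492. Metallothioneins are related genes in 1 cluster on chromosome 19, and probes of similar copies may share signal.

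Of 22 NF-kB targets and chemokines, 3 rose (13.6%) and 0 fell, against 9.03% and 6.12% of all genes, with a median of 0.06. At an unadjusted p below 0.05 by limma 6 were higher and 8 lower, against 21% and 16% of all genes. Cx3cl1, fractalkine, had a log2 difference of 0.84 ± 0.091 (SE), adjusted p = 0.00329, with 1.59 with Mn, 0.34 with MPP+ and 0.60 with 3-NPA. Ccl20, a chemokine, passed on pooling (-1.37 ± 0.128 (SE), adjusted p = 0.00211) with -0.19 with Mn, -0.51 with MPP+ and -3.40 with 3-NPA, and 1 Mn array lay within the control range. Csf2 and Nos2 stood out on the Mn arrays, at levels of -3.28 and -3.03 for Csf2 and -2.49 and -2.45 for Nos2, from controls that were not well above background, and are not counted as common with both corrections.

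Of 14 tested dopaminergic genes, 1 rose (7.14%) and 2 fell (14.3%), against 9.03% and 6.12% of all genes. Gch1, which starts synthesis of the tyrosine hydroxylase cofactor, differed by -0.60 ± 0.082 (SE), adjusted p = 0.00633, and Park7, the protein DJ-1, by -0.37 ± 0.075 (SE), adjusted p = 0.0202. Nr4a2, a factor of dopaminergic neurons, did not pass, at 0.04 ± 0.098 (SE), adjusted p = 0.809, nor did Th, at -0.01 ± 0.078 (SE), adjusted p = 0.921. Aldh1a1, a dehydrogenase of dopaminergic neurons, had -3.61 with Mn, -2.52 with MPP+ and 0.05 with 3-NPA; its arrays with Mn were dim, so the pooled difference is at least 2.96-fold lower (limma adjusted p = 0.00425; log2 difference with normexp -0.75).

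Of 25 genes of collagens, matrix and matricellular proteins, 5 rose (20%) and 4 fell (16%), against 9.03% and 6.12% of all genes. Lox, which cross-links collagen, was at -2.01 and -1.84 on the control arrays, -3.38 and -3.28 with Mn, -3.54 and -3.74 with MPP+, and -3.53 and -3.58 with 3-NPA, a log2 difference of -1.58 ± 0.091 (SE), adjusted p = 0.000631. Col3a1 differed by -1.47 ± 0.123 (SE), adjusted p = 0.00157, or -0.78 with normexp, Sparc by -0.78 ± 0.073 (SE), adjusted p = 0.00211 and Ctgf by 1.11 ± 0.111 (SE), adjusted p = 0.00261. Of 13 matrix proteases and inhibitors, 4 rose (30.8%) and 2 fell (15.4%). With both corrections 1 of the rises and 2 of the falls held. The median was 0.36, or 0.07 with dim genes at their bound. Adamts1, a secreted protease, was at 2.29 and 2.24 on the control arrays, 0.93 and 1.07 with Mn, 0.20 and 0.19 with MPP+, and -0.86 and -0.71 with 3-NPA (chr11:25434383-25434442), a log2 difference of -2.13 ± 0.08 (SE), adjusted p = 0.000331.

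**Figure D4:**
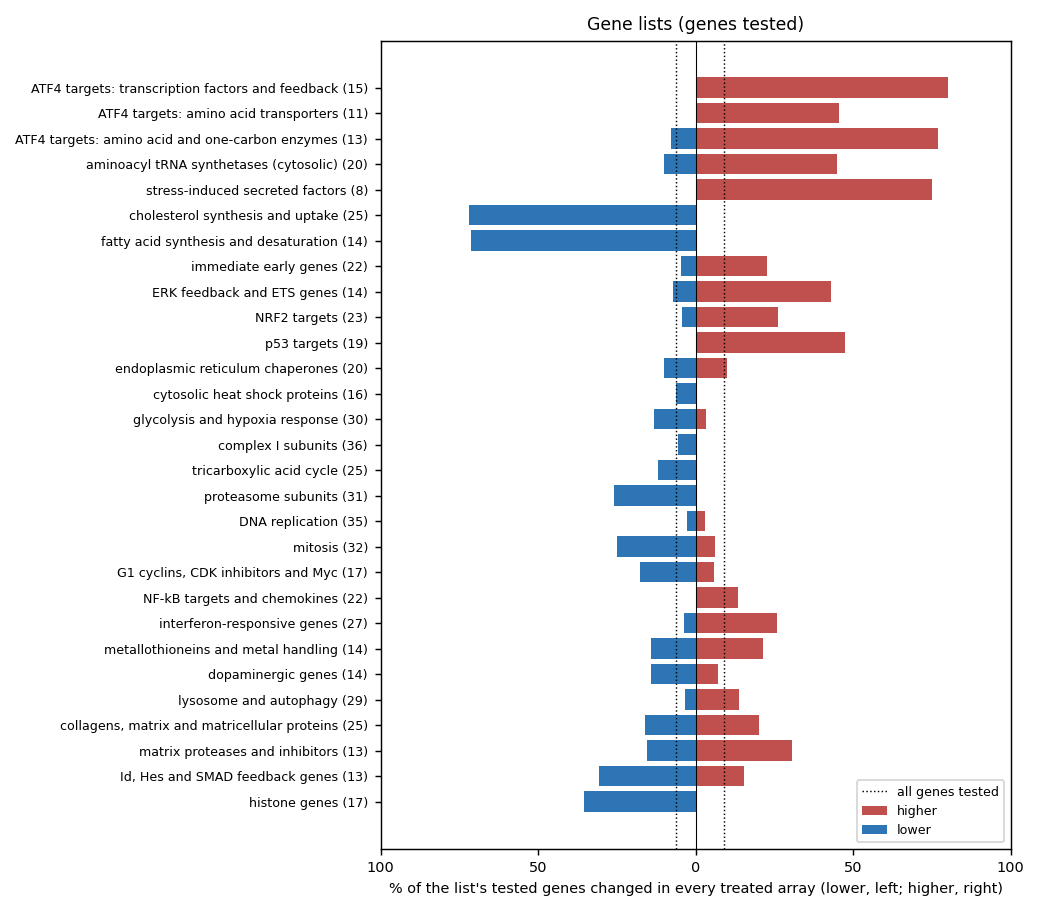
Share of each list's tested genes (number in brackets) that changed in every treated array, higher to the right in red and lower to the left in blue (x axis, percent). Dotted lines mark the shares of all tested genes, 9.03% and 6.12%; the ATF4 lists extend right of them and the cholesterol and fatty acid lists left.

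The size of the shared changes was unequal among the toxins. An F test of equal change with the 3 toxins, by limma, passed for 6174 of all genes (36.5%) and for 1364 of the 2561 genes changed in every treated array (53.3%). The count over all genes was 3420 and 3260 without MPP+ array 1 or 2, 2696 and 2688 without 3-NPA array 1 or 2, and 644 without both 3-NPA arrays. The median log2 change of the genes that rose came to 0.88 with 3-NPA, 0.56 with MPP+ and 0.50 with Mn, and in genes that fell to -0.70, -0.46 and -0.40. The largest of the 3 changes was with 3-NPA for 1735 (67.7%), with MPP+ for 529 (20.7%) and with Mn for 297 (11.6%). All 3 toxins called 492 of the 2561 genes on their own, 2 toxins 891, 1 toxin 1124 and 0 toxins 54.

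Equality of the toxin changes was ranked among genes with a pooled difference of at least 2-fold in the processed signal, with no bound for dim genes. Fat4, Dpep1, Glt8d2, Gbp5, Nup210 and Aen had the smallest range of toxin changes relative to their mean. Nup210, a nuclear pore protein, was at 1.51 and 1.55 on the control arrays, 2.55 and 2.51 with Mn, 2.61 and 2.58 with MPP+, and 2.53 and 2.52 with 3-NPA. Its 6 treated arrays lay between 2.51 and 2.61. Its log2 difference was 1.02 ± 0.065 (SE), adjusted p = 0.000752, with 1.00 with Mn, 1.07 with MPP+ and 1.00 with 3-NPA. Glt8d2, a glycosyltransferase family member, was dim on both control arrays and at least 1.3-fold higher (limma adjusted p = 0.00096; log2 difference with normexp 0.42). A p that misses the threshold in the F test does not show that the toxins act alike.

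The widest ranges were those of Ldhb, Cox6a2, Itga8, Srpx2, Mfap5 and Mmp17. Ldhb, lactate dehydrogenase B, was at -5.97 and -6.26 on the control arrays, -5.49 and -5.71 with Mn, -5.54 and -5.54 with MPP+, and -0.65 and -0.54 with 3-NPA (chr4:180061921-180063949). Its rise was nearly all on the 3-NPA arrays, and both control arrays were dim. The rise was also largest with 3-NPA for Itga8, an integrin chain, with 0.81 with Mn, 1.01 with MPP+ and 4.20 with 3-NPA. Likewise Mfap5, a microfibril protein, had 0.30 with Mn, 0.41 with MPP+ and 3.51 with 3-NPA. Mmp17, a membrane protease, had 0.67 with Mn, 0.13 with MPP+ and 3.32 with 3-NPA from control arrays of which 1 was dim. For Ldhb, Itga8 and Mfap5 the differences start from dim controls and give no measured size of change. Srpx2, a secreted sushi-repeat protein also dim in the controls, was highest with Mn, at 3.73 with Mn, 0.44 with MPP+ and 2.05 with 3-NPA. The F test had an adjusted p of 0.000159 for Ldhb and 0.000215 for Cox6a2. Apart from Cox6a2, none of these 6 was counted as changed in every treated array with normexp.

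**Figure D5:**
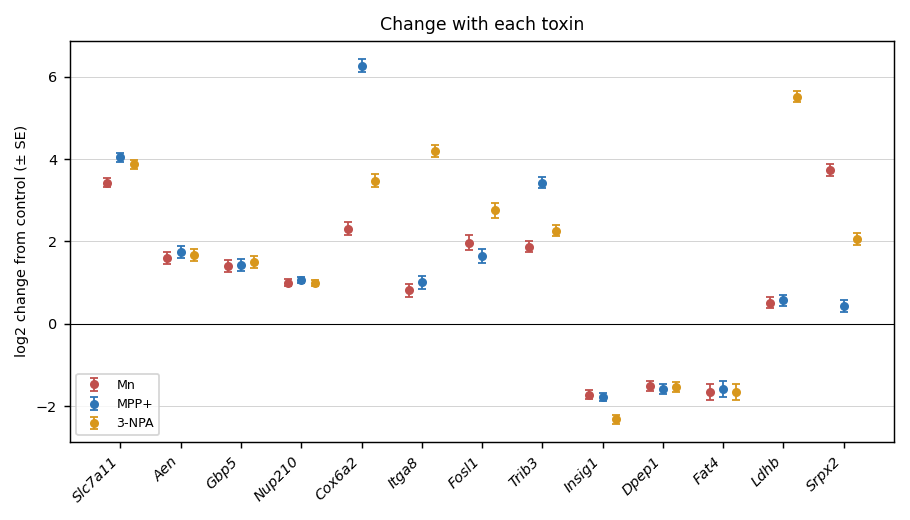
Log2 change from the control mean (y axis, ± SE from the limma fit) with each toxin (colour) for 13 genes changed in every treated array (x axis). Aen, Gbp5, Nup210, Dpep1 and Fat4 have nearly the same change with each toxin, while Cox6a2, Itga8, Ldhb and Srpx2 range over more than 3 log2 units; the controls of Itga8, Ldhb and Srpx2 were dim.

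Pooling also averaged out opposite changes. The toxins called 335 genes in opposite directions, of which 60 passed on pooling, and 206 of the 335 were well above background on all 8 arrays. Of these 206, MPP+ lowered and 3-NPA raised 99, the most frequent pattern. The genes with the largest opposed changes called for each toxin, Cdca7l, Cst9l, Sds, Gsta2, Fmo2 and Grp, were dim on both control arrays, and only 2 to 4 arrays were well above background. Their pooled normexp log2 differences were 0.20 for Cdca7l, 0.00 for Cst9l, -0.08 for Sds, 0.09 for Gsta2, 0.18 for Fmo2 and 0.07 for Grp, so no direction is given for them.

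Among genes well above background on all 8 arrays, chosen after their values were seen, Col1a1, the chain of type I collagen, was at -0.54 and -0.68 on the control arrays, 0.13 and 0.03 with Mn, -1.60 and -1.75 with MPP+, and 0.43 and 0.42 with 3-NPA. The Mn and 3-NPA arrays lay above both controls and the MPP+ arrays below. Its log2 change was 0.69 with Mn, -1.06 with MPP+ and 1.04 with 3-NPA, and the pooled difference was 0.22 ± 0.083 (SE), adjusted p = 0.109. Nxph3, a neurexophilin, had -0.21 with Mn, -1.25 with MPP+ and 1.71 with 3-NPA, and its pooled difference was 0.08 ± 0.069 (SE), adjusted p = 0.422. Tecpr1, an autophagy protein, was higher with MPP+ and lower with the others, at -1.26 with Mn, 1.35 with MPP+ and -1.63 with 3-NPA.

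Among markers of cell types, the neuron-specific Snap25, Syt1, Syp, Stmn2, Stmn3, Nefl, Nefm, Nefh, Ina, Gap43 and Elavl3 were not well above background on any array. The other 8 of 19 pan-neuronal markers on the arrays were well above background on at least 1 array. Of 6 tested pan-neuronal markers 3 rose (50%) and 1 fell (16.7%), against 9.03% and 6.12% of all genes. The rises were Uchl1 (1.13 ± 0.077 (SE), adjusted p = 0.000874) and Tubb3 (1.08 ± 0.127 (SE), adjusted p = 0.00411), both highest with 3-NPA, and Syn1, whose control arrays were dim. The fall was Map2, at -0.82 ± 0.185 (SE), adjusted p = 0.0285; Syn1 and Map2 were named after their values were seen. The summed signal of that list, as log2 relative to the 75th percentile, was 3.68 and 3.68 on the control arrays and 3.85 to 4.79 on the treated arrays. For astrocyte markers it was 2.90 to 2.98 and 1.92 to 3.05, and for oligodendrocyte markers -0.89 to -0.82 and -1.13 to -0.68.

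For microglia and macrophages the summed level was -0.20 to -0.14 on the control arrays and -0.70 to 0.30 on the treated arrays, and for endothelium -0.40 to -0.32 and -0.68 to 0.09. For fibroblasts and pericytes it was 1.35 to 1.57 and 1.16 to 2.26, and for neural progenitors 4.22 to 4.23 and 4.31 to 4.99. Defining markers such as Ptprc, P2ry12, Cldn5, Tie1, Dcn, Lum, Olig2 and Sox2 were not well above background on any array. Other members of the same lists were. On at least 1 array 10 of 11 oligodendrocyte, 9 of 14 microglia and macrophage and 8 of 10 astrocyte markers were well above background. So were 5 of 10 endothelial, 7 of 12 fibroblast and pericyte and 7 of 10 neural progenitor markers. Gja1, a connexin of astrocytes and many other cells, fell, at -0.96 ± 0.084 (SE), adjusted p = 0.00174, and Fcgr3a, an Fc receptor of macrophages, was dim on both controls and at least 1.54-fold higher (limma adjusted p = 0.000631; log2 difference with normexp 0.69). In bulk RNA fewer cells of a type and less RNA per cell cannot be told apart.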

How the data were processed

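RNA of N27 cells was read on 8 single-colour Agilent arrays. The deposited processed signal is an intensity with background subtracted and no scaling between arrays, extracted with Agilent Feature Extraction 11.5.1.1, per the file headers. A value table of log2 values was also deposited, whose making is not given in the sources used here, and it served as an alternative. Outlier and control spots were left out (39 probes lost), spots of a probe were averaged as log2, and the 75th percentile of each array was set to 0. Probes bright enough on both arrays of some group were kept (19460 of 30328, by the well-above-background mark), and a gene's brightest probe stood for it. All arrays entered 1 limma (3.58.1) fit of 4 group means (4 residual and 2.06 prior degrees of freedom), with the mean of the toxins against control as the contrast and Benjamini-Hochberg adjustment over 16908 genes. Fits were tested on simulated data. The smallest exact two-sided permutation p for 6 against 2 arrays is 0.0714, so none was used.

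Genes dim on both arrays of a group have a fold stated as "at least", against the higher of the array's lowest well-measured signal and the probe's own; the bound holds for the processed signal, and with normexp a fold can be below it. Of 30367 probes, 18809 (61.9%) matched a RefSeq accession. The members and gene lists were chosen with earlier results of these data known. Named genes were the 15 largest rises and falls by smallest toxin change, the 4 smallest p of each list, a few fixed genes, and the 6 most equal, 6 most unequal and 6 opposed, plus genes said to be chosen after their values were seen; some genes the rule names are not reported here. Alternatives are normexp with an offset of 50 on raw means, other scalings, filters, probe rules, variance models, arrays or toxins left out and a block of the replicate number.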

Additional observations from a re-analysis of the deposited data

Results flagged for a closer look

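The change from control differed among the 3 toxins, by limma's F test over 16908 genes, for 1364 of the genes changed in every treated array. Groups held 2 arrays, too few to look for a single array that stands apart. The values that follow are the range on the log2 scale between the largest and the smallest toxin change, for named genes whose F test passed.

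Among the largest rises the range was 0.62 for Slc7a11, 3.96 for Cox6a2, 1.44 for Mgmt, 1.71 for Gpnmb, 1.37 for Slc7a3, 1.50 for Fut1, 1.98 for Rsad2 and 1.56 for Trib3. It was 1.11 for Fosl1, 2.89 for Bpifb6, 1.00 for Cmpk2, 1.50 for Cdkn1a and 0.75 for Slc16a6. MPP+ gave the largest rise of Cox6a2, Slc7a3, Fut1, Trib3 and Slc7a11, and 3-NPA that of the others.

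Among the largest falls it was 0.94 for C5, 0.70 for Cbs, 0.60 for Insig1, 1.29 for Hist1h2bh and 1.34 for Hist1h2bf. It was 1.01 for Kng1, 1.00 for Id2, 0.51 for Rasl11a and 1.14 for Kng1l1. The widest ranges were 5.01 for Ldhb, 3.39 for Itga8, 3.30 for Srpx2, 3.21 for Mfap5 and 3.19 for Mmp17.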

How the results depend on the processing

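The main counts were 3676 genes changed on pooling, 2561 changed in every treated array and 6174 differing among the toxins. With no filter on dim probes the first 2 were 10370 and 8793, with array weights 2073 and 1617, with only 2 group means 100 and 100, and with a required change of at least 2-fold (treat) 56 and 54. Without Mn 4073 genes were changed in every treated array. Without MPP+ 3707 differed among the toxins left, and without 3-NPA the 3 counts were 976, 929 and 644. Requiring each toxin to be called gave 492, and requiring both background corrections, added after seeing the data, 1688. Leaving out each array in turn gave 2014 to 3544, 1574 to 2703 and 2688 to 6742; the count on pooling was 2255 without control array 1, 2014 and 2034 without MPP+ array 1 or 2, and 2149 and 2077 without 3-NPA array 1 or 2. The share of pooled calls that were higher was 59.9% and became 48.1% with normexp, 49.3% for genes well above background on all arrays and 46.6% for those with a processed signal of at least 200 on all arrays, the last added after seeing the data.

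The replicate numbers were not shown to pair the arrays: deviations of same-numbered arrays correlated at -0.024 to 0.098, and at 0.5 for Mn with 3-NPA. With the replicate number as a block the counts were 3394, 2353 and 5730. The pooled log2 difference reversed for dim genes of the opposed group and for Nxph3 (-0.73 without 3-NPA): Gsta2 (0.088 with normexp, 0.23 with quantile normalization, 0.22 without MPP+), Grp (0.073, 0.75, 0.31, and 0.27 without Mn), Sds (1.21 with quantile normalization) and Fmo2 (-0.15 without 3-NPA). The causes were not tested. With 2 arrays a group, the 2-mean fit ended the call of 93 of 142 named genes. The 142 include genes that were not called in the main fit, such as Nxph3, so the rest did not all keep a call. Dim genes are limited by a background that differed between control and treated arrays.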

Other observations

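Some genes that changed in every treated array have probes near each other on rn4; whether other genes lie between them was not examined. The probes of Fgf21 and Fut1, both higher, lie 5.9 kb apart on chromosome 1, and those of Ddit3 and Mars, both higher, 0.6 kb apart on chromosome 7. The Mt1a and Mt2A probes lie 6.1 kb apart and those of Mt2A and Mt3 16.7 kb apart on chromosome 19. Among the genes that fell, the probes of Hist1h2bh and Hist1h1a lie 67.9 kb apart on chromosome 17 and those of Kng1l1 and Kng1 113.8 kb apart on chromosome 11. These pairs were noticed after their values were seen, and whether neighbours are more frequent than elsewhere was not tested.

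Genes outside the lists, chosen after their values were seen, passed with the treated arrays as one group. Bcl2l11, the cell death protein BIM, was at -3.63 and -3.85 on the control arrays, -4.89 and -4.64 with Mn, -4.70 and -4.98 with MPP+, and -4.59 and -4.83 with 3-NPA, with -1.02 with Mn, -1.09 with MPP+ and -0.97 with 3-NPA. All treated arrays lay below both control arrays, and the pooled log2 difference was -1.03 ± 0.132 (SE), adjusted p = 0.0053. Upp1, uridine phosphorylase, was at -0.16 and 0.06 on the control arrays, 1.46 and 1.54 with Mn, 1.26 and 1.27 with MPP+, and 0.87 and 1.05 with 3-NPA, a pooled log2 difference of 1.29 ± 0.093 (SE), adjusted p = 0.00103. Abcb1b, a drug efflux pump, was at -0.71 and -0.68 on the control arrays, 1.41 and 1.12 with Mn, 0.63 and 0.54 with MPP+, and 1.41 and 1.53 with 3-NPA, a pooled log2 difference of 1.80 ± 0.099 (SE), adjusted p = 0.000578, and was highest with 3-NPA. Lrp2, the receptor megalin, had -1.79 with Mn, -1.33 with MPP+ and -1.30 with 3-NPA, a pooled log2 difference of -1.48 ± 0.09 (SE), adjusted p = 0.000688.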
